A study of Rattus norvegicus with 35 samples.

Results

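The rat Cyp2c genes encode cytochrome P450 enzymes of the liver. The family described here comprised 8 of them, Cyp2c6v1, Cyp2c7, Cyp2c11, Cyp2c12, Cyp2c13, Cyp2c22, Cyp2c23 and Cyp2c24, and its members were the probe sets that the platform annotation gave to 1 of these genes alone. Of the 8 genes, 7 had a probe set, 1 each, among 31042 probe sets that were not controls, and all 7 were among the 17971 probe sets tested. No probe set was annotated to Cyp2c24, which was not analysed here.

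Cultured primary hepatocytes of the rat took up each agent from the medium for 72 h before total RNA was hybridized to Affymetrix rat arrays. A probe set there is a group of short probes whose joint signal stands for a transcript, at times together with its close relatives. The groups were myclobutanil, propiconazole or triadimefon at 10, 30 or 100 uM, phenobarbital (PB) at 200 uM, PCN at 30 uM and the vehicle DMSO at 0.1%. Each of the 12 groups held 3 arrays, 1 of each code in the labels (Rs256, Rs293 and Rs304), except PCN with 2 (Rs293 and Rs304), which gave 35 arrays. The series' design calls the arrays of a group biological replicates. What a code marks, and the sex, strain and age of the animals, are not given in the sources used here, and cultured cells no longer receive the hormone signals of the animal. Myclobutanil, propiconazole and triadimefon are triazole fungicides: propiconazole holds a dioxolane ring, whereas triadimefon is a ketone and myclobutanil a nitrile. Phenobarbital is the classic activator of CAR and PCN that of rodent PXR. All treatments were set against the same 3 DMSO arrays.

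A cytochrome P450 inserts an oxygen atom into drugs, steroids or fatty acids, with electrons supplied by the reductase Por. In rat liver the nuclear receptors CAR (Nr1i3) and PXR (Nr1i2) raise transcription of P450 genes when drugs such as phenobarbital or PCN are present. Several Cyp2c genes depend instead on sex: pulses of growth hormone in males maintain Cyp2c11 through the factor Stat5b, whereas the steadier hormone level of females favours Cyp2c12. Cyp2c23 belongs to the same family by sequence and makes epoxides of arachidonic acid.

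The promoters of the 3 members that passed the test downward with propiconazole at 100 uM (Cyp2c11, Cyp2c13 and Cyp2c23) are shown with that of Cyp2c12, the female-specific member, which did not pass it. The RefSeq promoter table used here (build GRCr8) matched 7 of the 8 genes, all but Cyp2c6v1, and each line gives the 150 bases before the annotated start, 5′ to 3′ on the gene's strand. They lie at chr1:246175066-246175215 (plus strand, Cyp2c11), chr1:248787189-248787338 (minus, Cyp2c13), chr1:252863068-252863217 (minus, Cyp2c23) and chr1:248677035-248677184 (minus, Cyp2c12). Capitals mark matches, on either strand, to the HNF4-type motif CAAAGTNCA, the nuclear receptor core AGGTCA or the TATA box TATAAA.
Cyp2c11: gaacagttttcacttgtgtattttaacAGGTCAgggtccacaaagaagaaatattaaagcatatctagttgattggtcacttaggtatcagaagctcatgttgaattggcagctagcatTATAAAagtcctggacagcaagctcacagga
Cyp2c13: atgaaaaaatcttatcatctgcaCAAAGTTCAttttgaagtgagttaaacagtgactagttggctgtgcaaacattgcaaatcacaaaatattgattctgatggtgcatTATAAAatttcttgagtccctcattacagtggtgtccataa
Cyp2c23: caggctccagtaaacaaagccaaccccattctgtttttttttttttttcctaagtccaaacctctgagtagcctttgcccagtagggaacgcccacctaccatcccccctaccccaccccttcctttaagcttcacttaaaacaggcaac
Cyp2c12: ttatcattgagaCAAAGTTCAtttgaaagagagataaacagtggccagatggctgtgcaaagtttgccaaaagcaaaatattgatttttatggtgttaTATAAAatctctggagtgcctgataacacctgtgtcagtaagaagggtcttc

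Cyp2c12 and Cyp2c13 both held the letters of the HNF4-type motif, at positions -138 to -130 and -127 to -119 counted back from the annotated start, and 0.615% of the 33469 windows of the same length in the table held a match. Cyp2c11 held the AGGTCA core at -123 to -118 (8.76% of windows). A TATA box match lay at -31 to -26 in Cyp2c11, at -41 to -36 in Cyp2c13 and at -52 to -47 in Cyp2c12 (8% of windows). None of the 3 motifs was in the Cyp2c23 window. No motif searched was shared by the 3 promoters of the members that fell, and the matches overlapped nowhere.

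All levels and changes below have the unit of the deposited values, a log-like scale with a base not given in the sources used here, after quantile normalization, so they are not folds and 0 is close to an array's median. The deposited medians of the arrays ranged from -0.03 to 0.02 and their SDs from 0.645 to 0.937. The highest SD belonged to the Rs293 array of propiconazole at 30 uM, where the deposited values reached 5.46 for Cyp2c22, 4.38 for Cyp2c11 and 3.75 for Cyp2c6v1, the highest of all arrays for each of these probe sets. In all, 5 members lay above the array's median on all 35 arrays. Cyp2c13 did so on 12 arrays (3 of 3 with DMSO and on none of the 9 at 100 uM of a triazole) and Cyp2c12 on 7, so Cyp2c13 passed the filter on dim probe sets through arrays where it is high. The probe set IDs of Cyp2c13 (suffix _s_at) and Cyp2c6v1 (suffix _a_at) mark possible sharing between transcripts, and RefSeq lists 5 pseudogenes named after Cyp2c6v1 and 11 Cyp2c genes that are no pseudogenes, so signal from relatives cannot be told apart.

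As for the cells, all 11 hepatocyte markers with a probe set lay above the array's median on all 35 arrays. In contrast, all 6 endothelial markers with a probe set and 4 of 5 lymphocyte markers lay above it on no array. Above it on every array were 1 of 5 cholangiocyte markers (Epcam), 1 of 8 stellate cell markers (Acta2) and 1 of 8 macrophage markers (C1qb). On no array above it were Spp1 (cholangiocyte), Lrat and Lum (stellate cell) and C1qa, C1qc, Adgre1 and Cd163 (macrophage). Summed macrophage markers ranged from -0.66 to 0.26 with propiconazole at 100 uM, against -1.12 to -0.13 with DMSO, so the ranges overlapped. With myclobutanil and triadimefon at 100 uM they ranged from -1.16 to 0.30 and from -0.95 to 0.43. Of 4 tested macrophage markers 1 passed with propiconazole at 100 uM (11.3% of all probe sets): Cd68, also a lysosomal gene. The part of other cell types in the Cyp2c results was not tested. In such a culture fewer cells of a type and less RNA per cell cannot be told apart.

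Cyp2c6v1, an enzyme of both sexes whose gene is inducible by phenobarbital in rat liver, was higher with every treatment. With the fungicides at 100 uM its level (Rs256, Rs293, Rs304) was 3.26, 2.78 and 2.47 for myclobutanil, 3.05, 2.76 and 2.40 for propiconazole and 2.94, 2.63 and 2.50 for triadimefon. With phenobarbital it was 3.27, 2.18 and 2.66 and with PCN 2.69 (Rs293) and 2.15 (Rs304), against 1.93, 1.42 and 0.92 with DMSO. All 32 treated arrays lay above the DMSO array of their own code. Treated and DMSO arrays did not overlap, although the lowest treated array (Rs304, triadimefon at 10 uM, 1.94) lay next to the highest DMSO array (Rs256, 1.93).

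Over the groups the mean level of Cyp2c6v1 ran upward from 1.42 ± 0.502 with DMSO (SD, n = 3). The next were triadimefon at 10 uM (2.26 ± 0.484), myclobutanil at 10 uM (2.31 ± 0.371), PCN (2.42 ± 0.376, n = 2) and triadimefon at 30 uM (2.47 ± 0.489). Above these lay propiconazole at 10 uM (2.69 ± 0.353), triadimefon at 100 uM (2.69 ± 0.223), phenobarbital (2.70 ± 0.55) and propiconazole at 100 uM (2.74 ± 0.325). The highest means were those of myclobutanil at 30 uM (2.80 ± 0.324), propiconazole at 30 uM (2.83 ± 0.524) and myclobutanil at 100 uM (2.84 ± 0.397). Among treated groups each step to the next was smaller than the SDs, and only the step from DMSO to triadimefon at 10 uM (0.84) exceeded both. These SDs include the differences between codes (37.7% of the sum of squares, against 5.71% in the rest). They therefore do not measure the spread of a step within a code. PCN lacks the Rs256 array, the highest of every other group for this gene.

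The change of Cyp2c6v1 at 100 uM was 1.41 with myclobutanil (adjusted p = 0.0368), 1.31 with propiconazole (adjusted p = 0.00846) and 1.26 with triadimefon (adjusted p = 0.0466), each with an SE of 0.328 (limma over all 35 arrays, Benjamini-Hochberg within the comparison, threshold 0.05). In those comparisons 1 of 7 members passed with myclobutanil, 4 of 7 with propiconazole and 1 of 7 with triadimefon, where the share of all tested probe sets passing was 0.785%, 11.3% and 1.55%. Split by direction, 0.373%, 5.78% and 0.69% of all probe sets passed upward, as Cyp2c6v1 did, and 0.412%, 5.53% and 0.863% downward. The median change of the members was 0.08 for myclobutanil, 0.01 for propiconazole and -0.06 for triadimefon, and that of all tested probe sets 0.0053, 0.0037 and 0.0047. Without the Rs293 arrays the 3 calls were lost (adjusted p = 0.279, 0.150 and 0.338, in the order myclobutanil, propiconazole, triadimefon), and likewise without the Rs304 arrays (0.550, 0.165 and 0.679) or the Rs304 DMSO array (0.224, 0.0655 and 0.252), while the changes stayed between 1.02 and 1.45. Leaving out the Rs293 DMSO array ended the myclobutanil and triadimefon calls (0.133 and 0.135) but not that of propiconazole (0.0310). On the values as deposited none of the 3 passed (1.46, 1.20 and 1.34, adjusted p = 0.428, 0.139 and 0.313).

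Arrays of the same code deviated together, so the fit with the code as a block is given beside each member result whose call it changes. With the block the SE of Cyp2c6v1 was 0.128 (0.145 for PCN). Its rise passed with all 11 treatments, against 3 without the block. Its changes with the block were 0.89, 1.37 and 1.41 with myclobutanil at 10, 30 and 100 uM (adjusted p = 0.00558, 1.48e-06 and 3.59e-07). They were 1.26, 1.40 and 1.31 with propiconazole (8.30e-06, 9.64e-07 and 4.75e-08) and 0.84, 1.04 and 1.26 with triadimefon (0.0144, 0.000162 and 1.14e-06). Phenobarbital gave 1.28 (6.25e-06) and PCN 1.22 (0.000159). Without the block the adjusted p was 0.155 at 30 uM of propiconazole, 0.559 at 30 uM of triadimefon and 1 in the other 6 comparisons that did not pass without it. No member passed without the block at 30 uM of propiconazole or triadimefon, where 0.0111% and 0.0278% of all probe sets did (upward 0.0111% and 0.0223%, downward 0% and 0.00556%).

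Cyp2c6v1 had the smallest p of all 17971 probe sets in 7 of the 11 comparisons with the block. With myclobutanil at 10 uM and with triadimefon at 10 uM it was the only probe set that passed (0.00556% of those tested). Without the block no probe set passed limma there. An unadjusted p under 0.05 was reached by 48 and 266 probe sets without the block and by 134 and 809 with it. By chance 899 would be expected. With propiconazole at 10 uM, phenobarbital and myclobutanil at 30 uM, 3 probe sets passed with the block (0.0167%). Beside Cyp2c6v1 these were Ugt2b1, a glucuronosyltransferase (0.60, 0.71 and 0.73), and an unnamed probe set (1.03, 1.20 and 1.11). With PCN 4 passed (0.0223%), the same with Crp, C-reactive protein (0.42). These neighbours of Cyp2c6v1 were named after their values were seen.

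The calls with the block depended on single codes at the lowest dose and for the inducers. Without Rs304 the adjusted p of Cyp2c6v1 was 1 for myclobutanil and for triadimefon at 10 uM, 0.0569 for propiconazole at 10 uM, 0.104 for phenobarbital (change 1.08) and 0.104 for PCN (change 1.37). Without Rs256 it was 0.862 and 0.561 for myclobutanil and triadimefon at 10 uM and 0.0508 for triadimefon at 30 uM, and without the Rs304 DMSO array it was 0.183 and 0.45 at 10 uM of those compounds. The calls of myclobutanil and propiconazole at 30 and 100 uM and of triadimefon at 100 uM held without any code and without any DMSO array. On the values as deposited, the block called propiconazole at 30 uM (1.78, adjusted p = 0.000531) and the 3 fungicides at 100 uM, and left the other 7 treatments uncalled.

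**Figure D1:**
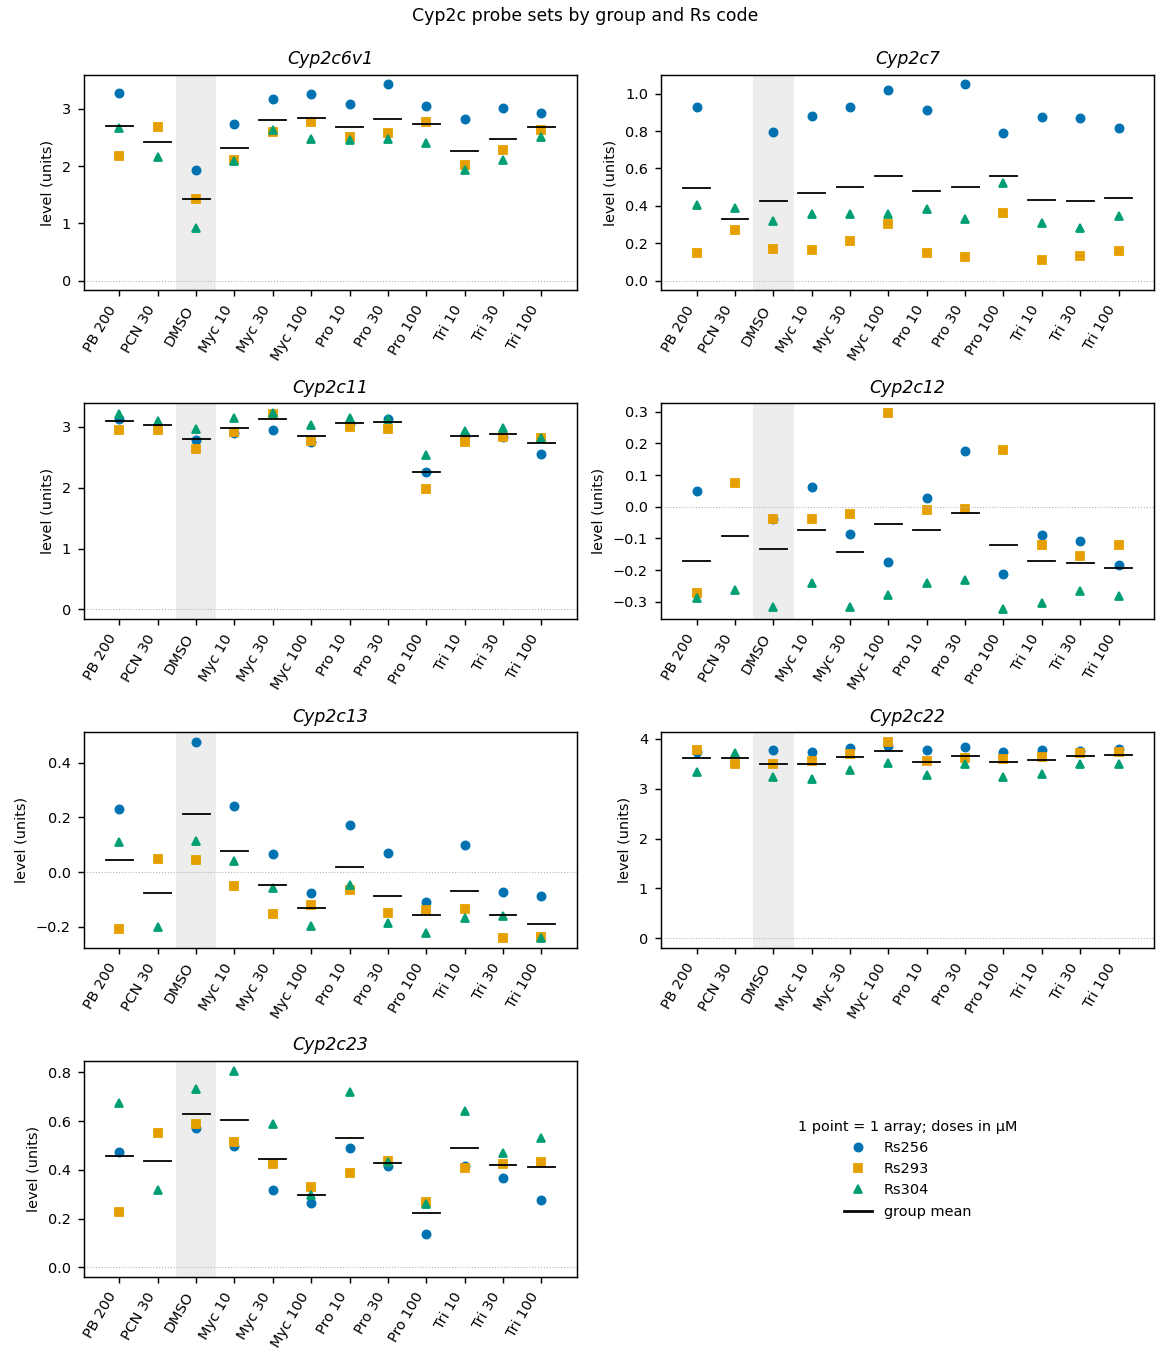
Level of each of the 7 Cyp2c probe sets (vertical axes, units of the deposited scale after quantile normalization, each panel on its own range) in the 12 groups, with PB and PCN left of DMSO (shaded) and each fungicide in order of dose to its right. Points are arrays coloured and shaped by code and bars are group means: Cyp2c6v1 lies above DMSO in every group, Cyp2c11 is lowest with propiconazole at 100 uM, and Cyp2c7 separates by code.

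Cyp2c11, the male-specific testosterone hydroxylase, fell with propiconazole at 100 uM. Its level there was 2.25, 1.98 and 2.53 (Rs256, Rs293, Rs304), against 2.78, 2.64 and 2.96 with DMSO. The 3 propiconazole arrays all lay below the 3 DMSO arrays. The change was -0.54 (SE 0.114, adjusted p = 0.00218). It passed without each code in turn and without each DMSO array in turn (changes of -0.62 to -0.46, adjusted p of at most 0.0454), and with the block (7.49e-06). On the values as deposited it did not pass (-0.49, adjusted p = 0.370), nor in a fit of only these 6 arrays (adjusted p = 0.0848). Of 21 alternative settings, with and without the block, 17 kept this call.

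No other treatment changed Cyp2c11 past the threshold, with or without the block. At 10 and 30 uM of propiconazole it lay above the DMSO array of its own code in 3 of 3 codes, with levels of 3.05, 2.99 and 3.14 at 10 uM and 3.13, 2.96 and 3.12 at 30 uM. The differences from DMSO were 0.27 at both doses (adjusted p with the block 0.997 and 0.0634). Phenobarbital gave 3.12, 2.94 and 3.20 and a change of 0.29, and PCN 2.95 and 3.10 and a change of 0.23, neither of which passed. With myclobutanil at 10, 30 and 100 uM the differences were 0.18, 0.33 and 0.05, and with triadimefon 0.04, 0.08 and -0.06.

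In order of the mean, Cyp2c11 was highest with myclobutanil at 30 uM (3.12 ± 0.158, n = 3), phenobarbital (3.09 ± 0.134), propiconazole at 30 uM (3.07 ± 0.0986) and at 10 uM (3.06 ± 0.0765) and PCN (3.03 ± 0.104, n = 2). Then came myclobutanil at 10 uM (2.98 ± 0.137), triadimefon at 30 uM (2.88 ± 0.0874), myclobutanil at 100 uM (2.84 ± 0.158), triadimefon at 10 uM (2.84 ± 0.0863) and DMSO (2.80 ± 0.162). Triadimefon at 100 uM (2.73 ± 0.149) and propiconazole at 100 uM (2.25 ± 0.273) closed the order. Only the last step, of 0.48, exceeded both SDs, which here too include the differences between codes.

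The dose series set the same fall apart. The slope of Cyp2c11 on the log10 of the propiconazole dose was -0.82 units per 10-fold (SE 0.114, adjusted p = 6.14e-05), the only member slope that passed without the block, where 7.92% of all probe sets passed. It passed without each code (-0.95 to -0.73) and was -0.91 on the values as deposited (adjusted p = 0.0683, with the block 0.0338). The levels at 10 and 30 uM were close to each other, so the slope describes a step between 30 and 100 uM. The slopes with myclobutanil (-0.14) and triadimefon (-0.11) did not pass.

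Between compounds at 100 uM, Cyp2c11 was 0.59 lower with propiconazole than with myclobutanil (change -0.59, SE 0.114, adjusted p = 0.0107), the only call of a member among the 9 pairs of fungicides at matched doses. Levels were 2.25, 1.98 and 2.53 with propiconazole, against 2.75, 2.76 and 3.03 with myclobutanil. Of all probe sets 0.562% passed in this pair. Against triadimefon, where levels were 2.56, 2.81 and 2.82, the change was -0.48 (adjusted p = 0.0550, with the block 0.000474, where 0.495% and 5.22% of all probe sets passed). The first pair lost its call without any of the 3 codes (adjusted p = 0.0696, 0.259 and 0.229 without Rs256, Rs293 and Rs304) but kept it in each of these with the block. The triadimefon pair was -0.30 without Rs293 (adjusted p with the block 0.0388). On the values as deposited neither pair passed (adjusted p = 0.820 and 0.879, with the block 0.376 and 0.484). Triadimefon and myclobutanil at 100 uM were not shown to differ (-0.11, 95% interval -0.35 to 0.12).

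For Cyp2c6v1 no pair of fungicides passed, with or without the block. At 100 uM the difference was -0.10 for propiconazole minus myclobutanil (95% interval -0.77 to 0.57), 0.05 for propiconazole minus triadimefon (-0.63 to 0.72) and -0.15 for triadimefon minus myclobutanil (-0.82 to 0.53). With the block those intervals were -0.36 to 0.16, -0.22 to 0.31 and -0.41 to 0.12. At 10 uM propiconazole was 0.43 above triadimefon (-0.25 to 1.10) and 0.38 above myclobutanil (-0.30 to 1.05). The block narrowed these last intervals to 0.16 to 0.69 and 0.11 to 0.64. With it, propiconazole at 30 uM was 0.36 above triadimefon (0.10 to 0.62) and 0.03 above myclobutanil (-0.24 to 0.29). Triadimefon minus myclobutanil was -0.33 at 30 uM (-0.60 to -0.07). These intervals are not adjusted, and no Cyp2c6v1 pair had an adjusted p under 0.720 with the block. The intervals at 100 uM, with and without the block, include differences of Cyp2c6v1 in either direction between the dioxolane, nitrile and ketone compounds. With the block its slope on log10 dose passed for myclobutanil (0.52, adjusted p = 0.0184, without the block 0.696) and did not for triadimefon (0.43, adjusted p = 0.0691) or propiconazole (0.05, adjusted p = 0.854). With the block 5.02%, 2.81% and 22.3% of all probe sets passed for those slopes. Without Rs256 or Rs304 the myclobutanil slope did not pass (adjusted p = 0.107 and 0.122), and whether the 3 slopes differ from each other was not tested.

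Set side by side within a code, Cyp2c6v1 and Cyp2c11 parted in every treatment. The change of Cyp2c6v1 minus that of Cyp2c11, each taken against the DMSO array of the same code, was above 0 on all 32 treated arrays. With propiconazole at 100 uM it was 1.65, 2.00 and 1.91 (mean 1.85 ± 0.181, SD, n = 3), made of a higher Cyp2c6v1 (1.12, 1.34 and 1.48) and a lower Cyp2c11 (-0.53, -0.66 and -0.44). Here the members moved in opposite directions in 3 of 3 codes.

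With myclobutanil at 100 uM the same quantity was 1.36 ± 0.124 and with triadimefon at 100 uM 1.33 ± 0.356, where Cyp2c11 lay below its DMSO array in 1 and in 2 of 3 codes. At 10 uM it was 0.70 ± 0.281, 0.997 ± 0.326 and 0.79 ± 0.281 with myclobutanil, propiconazole and triadimefon, and at 30 uM 1.05 ± 0.426, 1.13 ± 0.279 and 0.96 ± 0.258. Phenobarbital gave 0.99 ± 0.523 and PCN 1.02 ± 0.101 (n = 2), with both members above DMSO in every code. The same held for myclobutanil and propiconazole at 10 and 30 uM and for triadimefon at 30 uM. These are descriptions: each quantity shares its DMSO arrays with the others.

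**Figure D2:**
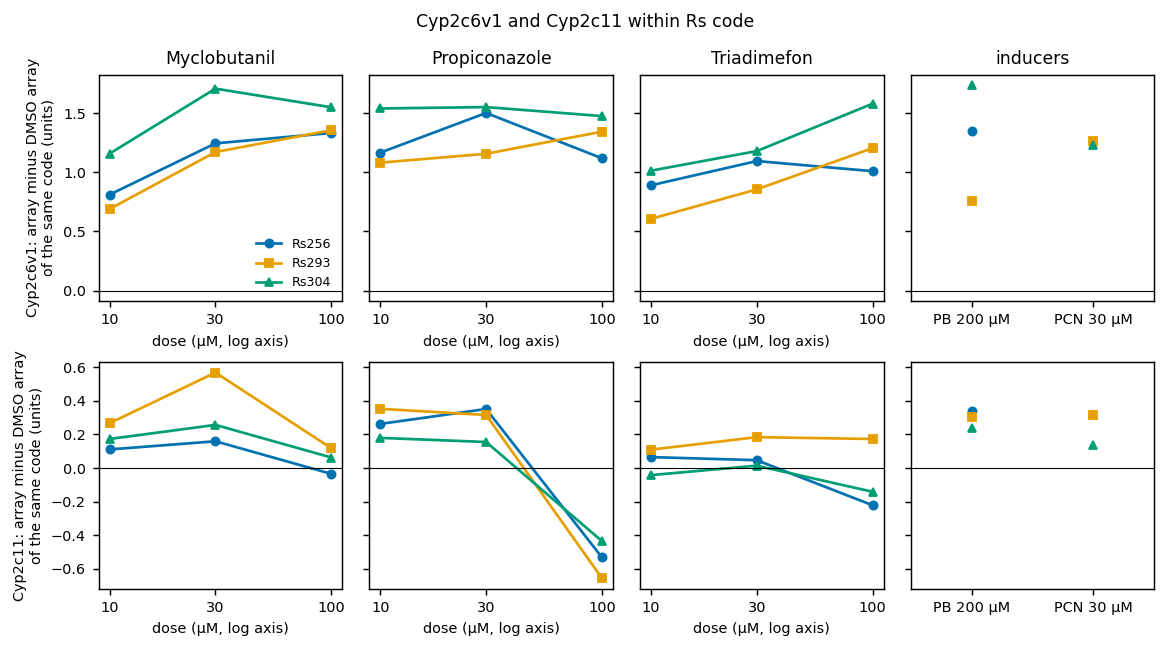
Change of Cyp2c6v1 (top row) and Cyp2c11 (bottom row) on each treated array minus the DMSO array of the same code (vertical axes, units), by dose in uM on a log axis for the 3 fungicides and by agent for phenobarbital and PCN. Each line joins the arrays of a code: Cyp2c6v1 is above 0 everywhere, and Cyp2c11 is below 0 in all 3 codes only with propiconazole at 100 uM (-0.66 to -0.44).

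Cyp2c13, another male-specific member, lay below the DMSO array of its own code on 31 of 32 treated arrays. Its levels at 100 uM were -0.11, -0.14 and -0.22 with propiconazole, -0.08, -0.12 and -0.20 with myclobutanil and -0.09, -0.24 and -0.24 with triadimefon, against 0.47, 0.05 and 0.11 with DMSO. All 9 arrays at 100 uM lay below all 3 DMSO arrays and below the array median. It fell with propiconazole (-0.37, SE 0.112, adjusted p = 0.0313).

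With triadimefon the change of Cyp2c13 was -0.40 (adjusted p = 0.0728, with the block 0.000432) and with myclobutanil -0.34 (0.194, with the block 0.00254). The block also called it at 30 uM of propiconazole (-0.30, adjusted p = 0.0202, without it 0.677) and of triadimefon (-0.37, 0.00797, without it 0.527), where 1.82% and 0.874% of all probe sets passed (downward 0.623% and 0.362%, upward 1.2% and 0.512%). Phenobarbital (-0.17) and PCN (-0.29) did not pass. The DMSO array of Rs256 was the highest of all 35, and without that array the propiconazole change was -0.24 (adjusted p = 0.225, with the block 0.00419). The propiconazole call was also lost without Rs256 (0.0625), Rs293 (0.0553) or Rs304 (0.296). With the block and without Rs256, myclobutanil at 100 uM, propiconazole at 30 uM and triadimefon at 30 uM did not pass (adjusted p = 0.143, 0.239 and 0.318), nor without Rs304 (0.0556, 0.218 and 0.104). Without the Rs256 DMSO array both calls at 30 uM were lost (0.158 and 0.0919), and without the Rs304 DMSO array that of propiconazole (0.0537).

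Cyp2c23, the arachidonic acid epoxygenase, was also lower at the top dose. It lay at 0.14, 0.27 and 0.26 with propiconazole at 100 uM and at 0.26, 0.33 and 0.30 with myclobutanil, against 0.57, 0.59 and 0.73 with DMSO, and neither group overlapped DMSO. With triadimefon it was 0.28, 0.43 and 0.53, also below all DMSO arrays. On 31 of 32 treated arrays it was below the DMSO array of its code. The exception was Rs304 with myclobutanil at 10 uM (0.81).

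The change of Cyp2c23 was -0.41 with propiconazole at 100 uM (SE 0.102, adjusted p = 0.00824). In the fits without the block it was the only member call that also passed on the values as deposited (-0.40, adjusted p = 0.0188). The next values are changes of Cyp2c23 at 100 uM too. It was -0.33 with myclobutanil (0.150, with the block 0.00928) and -0.22 with triadimefon (0.392, with the block 0.0849). Without the Rs256 arrays, the Rs293 arrays or the Rs304 DMSO array the propiconazole call was lost (adjusted p = 0.0751, 0.0564 and 0.0508) and the change stayed between -0.45 and -0.36. With the block it passed without each of them. The myclobutanil call with the block was lost without Rs256 (0.107) or Rs304 (0.0843). Its slopes on log10 dose were -0.31 with both compounds and passed with the block (propiconazole adjusted p = 0.00544, myclobutanil 0.0227), not without it (0.0586 and 0.280). With the block they were lost without Rs256 (0.0968 and 0.125) or Rs304 (0.0619 and 0.315).

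With the block, 4 of 7 members passed with propiconazole at 100 uM (Cyp2c6v1 upward, Cyp2c11, Cyp2c13 and Cyp2c23 downward), 4 with myclobutanil and 2 with triadimefon. The shares of all tested probe sets were 27.1%, 7.97% and 9.96% (upward 13.7%, 3.76% and 4.71%, downward 13.4%, 4.22% and 5.25%). Among the 4 with myclobutanil was Cyp2c22, a member that oxidizes retinoic acid, at 3.85, 3.93 and 3.51, against 3.77, 3.50 and 3.24 with DMSO. Its change of 0.26 (adjusted p = 0.0456, without the block 0.706) passed in no fit that left out a code, and the groups overlapped. In the other 10 treatments Cyp2c22 did not pass, with changes between -0.01 and 0.17 without the block.

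**Figure D3:**
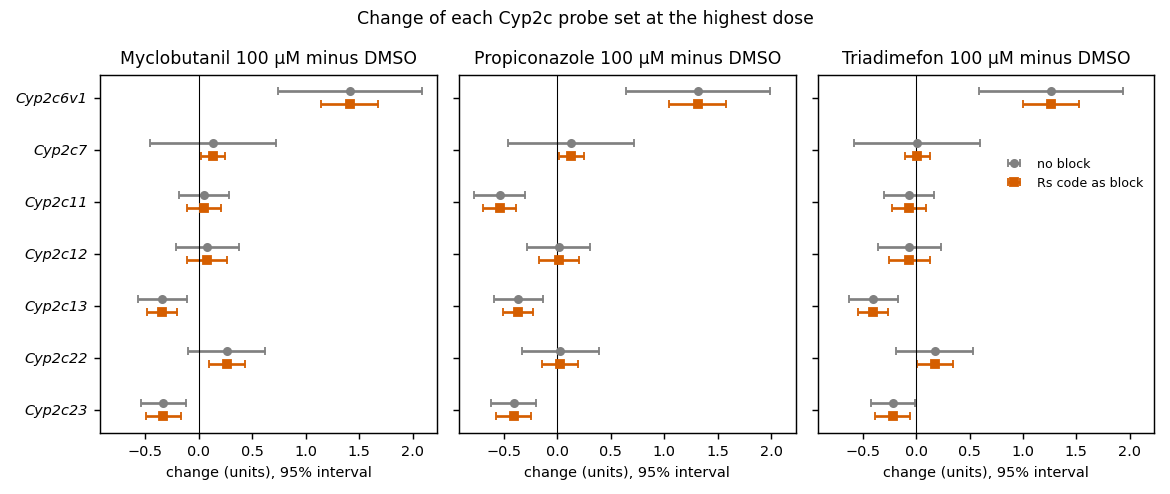
Change of each Cyp2c probe set at 100 uM of myclobutanil, propiconazole and triadimefon minus DMSO (horizontal axes, units), with 95% intervals of the fit, without the block (grey circles) and with the code as a block (orange squares). Cyp2c6v1 lies between 1.26 and 1.41 units in the 3 panels, and Cyp2c11 lies apart from 0 with propiconazole (-0.54) and not with the others.

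Cyp2c7 and Cyp2c12, both favoured in females, passed no test against DMSO. Cyp2c12 lay at -0.21, 0.18 and -0.32 with propiconazole at 100 uM, against -0.04, -0.04 and -0.32 with DMSO, and its changes over the 11 treatments ran from -0.06 to 0.11 without the block. Since it lay above the array median on 7 of 35 arrays, a change could show there only to a limited degree. Cyp2c7 lay at 0.79, 0.36 and 0.52 with propiconazole at 100 uM, against 0.79, 0.17 and 0.32 with DMSO. Its change was 0.13 (adjusted p = 0.860, with the block 0.0867).

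Cyp2c7 differed by code and hardly by treatment. Its mean was 0.90 in Rs256, 0.18 in Rs293 and 0.36 in Rs304, and no Rs256 array overlapped those of the other codes. Over the 33 arrays of the 11 groups with all codes, 94.6% of its sum of squares lay between codes and 2.17% between groups. Cyp2c22 also varied mainly by code (76.6%, with 15.8% between groups) and was highest in Rs256 (3.78), then Rs293 (3.67) and Rs304 (3.36). For Cyp2c11 the order was turned round: 11.9% lay between codes and 79.1% between groups. Cyp2c6v1 had 37.7% and 56.6%, with code means of 2.97, 2.35 and 2.24. For Cyp2c13 and Cyp2c23 the share between groups was 50.3% and 54.7% and that between codes 35.5% and 25.7%. Cyp2c12 had 51.6% between codes, 12.2% between groups and the rest within.

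**Figure D4:**
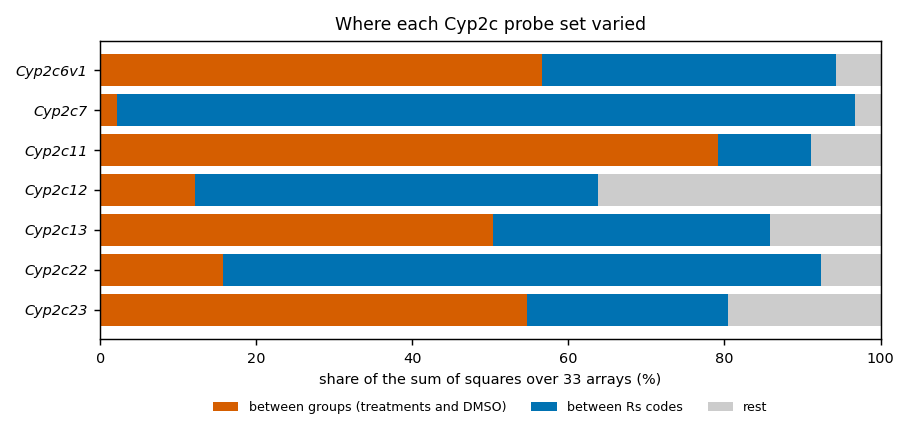
Share of the sum of squares of each Cyp2c probe set (horizontal axis, percent) that lay between groups, between codes and in the rest, over 33 arrays of 11 groups (PCN left out). Cyp2c11 varied mostly between groups (79.1%) and Cyp2c7 mostly between codes (94.6%).

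The genes whose pattern was most like that of Cyp2c6v1 over the 12 group means, fitted with the block, were Cyp3a23-3a1 (Pearson r = 0.899) and Cyp3a2 (0.878), both P450 genes of the PXR pathway. They were followed by the lipoprotein receptor Vldlr (0.809), the glycoprotein folding sensor Uggt1 (0.803) and the convertase Pcsk6 (0.770). These were the 5 highest of 340 genes whose group means spanned at least 0.5 units. Cyp3a23-3a1 changed by 0.79, 0.91 and 0.90 with propiconazole, myclobutanil and triadimefon at 100 uM, against 1.31, 1.41 and 1.26 for Cyp2c6v1.

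Most like Cyp2c11 were the aromatic amino acid decarboxylase Ddc (r = 0.944), the membrane protein Pmp22 (0.935), the creatine synthesis enzyme Gamt (0.929), the lectin Mbl2 (0.914) and the cystathionine synthase Cbs (0.910). Their fitted differences from DMSO ran from -0.44 to -0.30 with propiconazole at 100 uM. With phenobarbital they ran from 0.08 to 0.28, and none of the 5 passed the test there. The coefficients describe 12 means that share arrays and a normalization.

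Genes that act on or beside the Cyp2c family are given by list, at 100 uM of propiconazole and without the block unless stated. There 5.78% of all tested probe sets passed upward and 5.53% downward (with the block 13.7% and 13.4%), against which each count is to be read. Of 14 tested regulators of Cyp2c genes, 1 fell and none rose (median -0.06), a share near that of all probe sets: Onecut1, the hepatocyte factor HNF6, was at 0.25 with propiconazole, against 1.07 with DMSO (-0.82, adjusted p = 0.00270). CAR (-0.26, adjusted p = 0.619), PXR (-0.17, 0.555) and Hnf4a (-0.13, 0.508) did not pass, and the block called 2 of the 14 higher and 4 lower (27.1% of all probe sets in either direction), with CAR among the lower ones (adjusted p = 0.0332). With myclobutanil and triadimefon no regulator passed (0.785% and 1.55% of all probe sets). With the block only Onecut1 did (-0.46 and -0.54). This was 1 of 14, near the 7.97% and 9.96% of all probe sets that passed in either direction.

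In the growth hormone axis 2 of 10 rose and 1 fell (median -0.03, with 11.3% of all probe sets passing in either direction). Stat5b, the factor that relays growth hormone pulses to Cyp2c11, rose by 0.39 (adjusted p = 1.32e-05) and the kinase Jak2 by 0.31 (0.00278), while Igf1, the main hepatic target of the hormone, fell by 0.67 (0.000347). The growth hormone receptor Ghr was at 0.94, against 1.45 with DMSO, and did not pass (-0.50, adjusted p = 0.0777, with the block 0.00170). With myclobutanil and triadimefon none passed. With the block Stat5b rose (0.19 and 0.18) and Igf1 fell (-0.43 and -0.34) there too, and Ghr fell with triadimefon (-0.48). Of all probe sets 3.76% and 4.71% then passed upward and 4.22% and 5.25% downward.

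Of 19 other CAR and PXR targets listed, 13 were tested, so nothing is known here of the rest. Of these 13, 3 rose and 1 fell with propiconazole (median 0.18, against 5.78% and 5.53% of all probe sets). They were Cyp3a23-3a1 (0.79), the efflux transporters Abcc2 (0.95) and Abcb1a (0.54) and the dehydrogenase Aldh1a1 (-0.63). Myclobutanil also gave 3 higher and 1 lower (median 0.27, against 0.373% and 0.412%) and triadimefon 3 higher (median 0.20, against 0.69%), with Ugt2b1 (0.73 and 0.55) in place of Abcb1a. Phenobarbital and PCN called only Ugt2b1 of the 13 (0.00556% of all probe sets for each). The block called 5 of the 13 higher and 2 lower with propiconazole. It called 6 and 1 with myclobutanil and 7 and 1 with triadimefon. Of all probe sets 27.1%, 7.97% and 9.96% passed with the block, in the order propiconazole, myclobutanil, triadimefon. Of 5 genes of the electron supply to P450s, 1, Cyb5b, rose without the block with propiconazole (0.40, adjusted p = 1.25e-05, against 5.78% of all probe sets) and Por did not pass (0.18, 0.332). The block called 2 of the 5 higher with propiconazole, 3 with myclobutanil and 2 with triadimefon, against 13.7%, 3.76% and 4.71% of all probe sets upward.

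Of 11 other sex-dependent P450 and steroid genes listed, 6 were tested, and none passed without the block (11.3% of all probe sets). With it (27.1%), the male-specific Cyp2a2 fell by 0.66 and Hsd3b5 by 0.30, and Cyp3a2, also male-specific and a PXR target, rose by 0.68. Of 9 fatty acid epoxygenases, hydroxylases and epoxide hydrolases, which act on the same kind of substrate as Cyp2c23, 4 fell and none rose (median -0.46, against 5.53% of all probe sets downward): Cyp4a3 (-2.01), Cyp4a1 (-1.91), Cyp2j4 (-0.71) and Cyp2j3 (-0.62). Myclobutanil lowered 2 of the 9, Cyp4a3 (-1.21) and Cyp4a1 (-1.48), against 0.412%, and triadimefon 3, Cyp4a3 (-0.94), Cyp2j3 (-0.53) and Cyp2j4 (-0.49), against 0.863%. The block called 7 of the 9 lower with propiconazole, 4 with myclobutanil and 4 with triadimefon, and none higher. Of all probe sets 13.4%, 4.22% and 5.25% then passed downward, in that order. The median over all tested probe sets was 0.0037 with propiconazole.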

How the data were processed

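Total RNA of 35 cultures was measured on Affymetrix rat arrays. The values used are the deposited score per probe set of the series' value table, log-like and centred near 0. The authors' summarisation, background correction and normalization, and the base of the scale, are not given in the sources used here. Of 31099 probe sets 57 were controls. The rest were quantile normalized between arrays, named from the platform annotation (20826 with 1 gene, 436 with several; 20758 matched RefSeq), and kept where 2 or more arrays had them above their median (17971). Quantile normalization became the main setting because array SDs differed.

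Tests were limma fits (lmFit, eBayes; version 3.58.1, R 4.3.3) of all 35 arrays, 1 mean per group, two-sided, with Benjamini-Hochberg adjustment within each of 11 comparisons with DMSO, 9 pairs of fungicides and 3 slopes, at 0.05. The fit was tested on simulated data in which arrays varied independently. No effect of the code was simulated, so that test cannot judge between the fits with and without the block. The number of arrays limits precision.

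The Rs code as a fixed block is an alternative. Residuals, each array minus its group's mean, correlated for arrays with the same code in all compared pairs of groups (r = 0.299 to 0.938). Over all pairs of groups the median for the same code was 0.612, so the codes pair the arrays. Residuals of a group sum to 0, so the negative median for different codes (-0.347) adds no separate evidence. Named were all members, the 5 genes most like Cyp2c6v1 and Cyp2c11, and listed genes that passed. The members, lists and settings were chosen with earlier results of these data known.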

Additional observations from a re-analysis of the deposited data

How the results depend on the processing

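Without the block 6 member changes against DMSO passed. This count was 1 on the values as deposited and 1 with arrays centred on their median, 2 in fits of only the groups compared, 20 with the replicate block and 11 with the block on the values as deposited. It ran from 1 to 6 without a code, from 2 to 5 without a DMSO array, from 10 to 23 without a code with the block (13 without Rs256) and from 16 to 19 without a DMSO array with the block (18 without that of Rs256). Without the block it was 1 without Rs293 and 2 without Rs304, and in those fits without the block only the Cyp2c11 change with propiconazole at 100 uM passed without each code and each DMSO array. Of the 9 pairs, 1 member call passed. The count was 0 on the values as deposited, median centred, in fits of only the groups compared, with the block on the values as deposited and without any code, 2 with 1 probe set per gene, 2 with the block and 2 to 3 with the block without a code. Of the slopes 1 passed, with 0 on the values as deposited and 0 median centred, 2 with 1 probe set per gene, 4 with the block, 2 with the block on the values as deposited and 1 to 6 with the block without a code. Filters on dim probe sets and an intensity trend kept the counts within 4 to 6, 1 and 1. The stricter filter kept Cyp2c13 only through DMSO, where it lay above the array median on all 3 arrays. That filter is therefore no independent check of its fall against DMSO. No member change called with or without the block turned its sign in any setting. Uncalled changes that did were at most 0.12 in size. Cyp2c12 and Cyp2c13 were not tested with 1 probe set per gene, nor Cyp2c12 under the stricter filter. The settings that join the block with deposited values or with left-out arrays were chosen after seeing the data. The cause of these differences was not tested. Dim members (Cyp2c12, Cyp2c13) limit what could be seen.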
